A study of Rattus norvegicus with 8 samples.

Results

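The 9 genes that mark the stage between oligodendrocyte progenitor and myelinating oligodendrocyte were followed in newly made RNA of cultured rat brain cells: Gpr17, Bcas1, Enpp6, Tcf7l2, Tns3, Myrf, Nkx2-2, Sirt2 and Fyn. They were chosen by name, as genes of newly formed oligodendrocytes, with earlier results of these data known. The shares of all genes set beside them are therefore a description. All 9 of the 9 were found among the 16871 gene symbols of the deposited count table. All were among the 11372 genes that passed the filter on low counts. The cells were co-cultures of cortical and hippocampal neurons from newborn Sprague Dawley pups, aged P1-P2. Bromouridine (BrU), an analogue of the RNA nucleoside uridine, was present at 2 mM for the last 30 min. The RNA that had taken it up was captured and sequenced (BrU-seq). The counts therefore reflect transcription in that window rather than the store of messenger RNA. Each of the 4 groups held 2 libraries and is named by its treatments in order, H for vehicle (water) and T for tetrodotoxin (TTX, 1 µM), a toxin that silences neurons by closing off their sodium channels. HH had vehicle at both times. HT had vehicle and then TTX, TH had TTX and then vehicle, and TT had TTX at both times. All groups shared the schedule: 24 h of the first treatment from day 14 in vitro, 48 h of washout, and 4 h of the second treatment on day 17. The labels describe the cells as neurons, and the sample titles name a hippocampal neuron culture without the cortex. The cells that made the transcripts described here were not identified, and a change in the number of those cells and a change in transcription per cell cannot be told apart in these bulk libraries.

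Oligodendrocytes arise from dividing progenitors that carry the receptor Pdgfra and the proteoglycan Cspg4. On leaving the cell cycle a progenitor passes through a short premyelinating stage, in which it extends many processes, switches on a set of transient genes, and either matures into a myelin-forming cell or dies. Neuronal firing is known to influence how progenitors divide and mature in the brain. Several of the 9 genes are also transcribed outside this lineage, Fyn and Sirt2 in neurons among them.

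Totals ran from 3489176 to 4959887 counts per library, and the 9 genes were counted from 18 reads (Nkx2-2 in HH replicate 1) to 5708 reads (Fyn in TT replicate 2). Levels are given as CPM, counts scaled to a common library size after trimmed mean of M values (TMM) correction, and they are compared between libraries for a gene, not between genes. Changes are log2 fold changes, each followed by its standard error (SE), from edgeR's quasi-likelihood test over all 8 libraries, and adjusted p-values were adjusted over the 11372 genes. No adjusted p of edgeR was below 0.05 for any gene in any comparison, a background of 0% of 11372 genes, so the values below describe these libraries and none of the 9 genes is called changed by that test. DESeq2 called no gene in the pairwise comparisons of the planned design or in the interaction. The culture did hold the lineage: the lineage factor Olig2 stood between 97.5 and 148 CPM and Sox10, which is needed for maturation, between 19.1 and 56.0 CPM. Among genes of mature myelin, Mog, Mag, Opalin, Ermn and Aspa had too few counts to pass the filter, while Mbp, Cnp and Cldn11 were among those that passed it. Among the libraries, TT replicate 2 held the highest level of all 9 genes, against 13.2% of all tested genes that peaked there, and the main values that involve TT are therefore also given without it. HH replicate 1 also stood apart, with the highest library level for 21.6% of all genes and the lowest for 22.3%. It was the lowest library for 4 of the 9 members and HH replicate 2 for the other 5.

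Gpr17 encodes a G protein-coupled receptor that is switched on in committed precursors and has to be switched off before myelin is made. Its nascent level was 6.48 and 6.78 CPM in the HH libraries (replicate 1 and then replicate 2, as throughout), 13.7 and 12.9 in HT, 9.39 and 13.8 in TH, and 14.9 and 25.9 in TT. Both HH libraries thus lay below the other 6, and both TT libraries lay above them. HT and TH overlapped. The group means were 6.63 ± 0.215 CPM in HH, 13.3 ± 0.564 in HT, 11.6 ± 3.09 in TH and 20.4 ± 7.74 in TT (SD, n = 2).

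Enpp6, a choline-specific phosphodiesterase whose transcript marks newly forming oligodendrocytes, was measured at 26.2 and 33.9 CPM in HH, 34.7 and 40.7 in HT, 30.9 and 38.0 in TH, and 50.8 and 70.5 in TT. Here the 2 TT libraries stood clear of the other 6, and TH overlapped both HH and HT.

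Bcas1 marks early myelinating cells, and Tns3 encodes tensin 3, an adhesion protein of the cytoskeleton that is abundant in immature oligodendrocytes. Bcas1 stood at 224 and 134 CPM in HH, 329 and 271 in HT, 278 and 431 in TH, and 372 and 839 in TT. Of the 9 genes it had the widest range, 6.28-fold between the lowest and the highest library. Tns3 stood at 203 and 159 CPM in HH, 319 and 313 in HT, 261 and 341 in TH, and 380 and 677 in TT. For Tns3 no HH library reached the lowest of the others and no other library reached the lower TT value. For Bcas1, TH replicate 2 exceeded TT replicate 1.

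Of the members, 3 are transcription factors. Tcf7l2, a partner of beta-catenin in Wnt signalling that is expressed for a short time in differentiating oligodendrocytes, stood at 20.7 and 19.6 CPM in HH, 28.5 and 25.3 in HT, 22.9 and 28.3 in TH, and 36.9 and 56.0 in TT. Its order was that of Gpr17, with HH below, TT above, and HT and TH overlapping between them. Myrf is made as a membrane-bound protein that cuts itself, moves to the nucleus and drives myelin genes. Its level was 14.5 and 17.5 CPM in HH, 26.1 and 21.3 in HT, 24.0 and 36.0 in TH, and 24.7 and 68.7 in TT. TT replicate 1 thus lay within the range of HT and TH, and the high TT mean of 46.7 ± 31.2 CPM (SD, n = 2) came from replicate 2. Nkx2-2, a homeodomain factor that sets the timing of differentiation, had the lowest counts, 18 to 58 reads, and stood at 5.55 and 5.48 CPM in HH, 6.47 and 7.02 in HT, 7.18 and 8.70 in TH, and 7.23 and 11.6 in TT. It was the only member in which all 4 libraries with a history of TTX exceeded all 4 without one, which was seen in 1.73% of the genes tested, with 1.17% the other way round.

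Sirt2, a deacetylase that acts on tubulin and other proteins, stood at 55.2 and 69.1 CPM in HH, 73.0 and 83.1 in HT, 84.8 and 87.0 in TH, and 82.0 and 143 in TT. Fyn, a Src family kinase that relays adhesion signals as processes grow, stood at 775 and 725 CPM in HH, 793 and 779 in HT, 793 and 830 in TH, and 800 and 1137 in TT. Without TT replicate 2 the Fyn libraries ran only from 725 to 830 CPM. It had the narrowest range of the 9 genes, 1.57-fold.

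**Figure D1:**
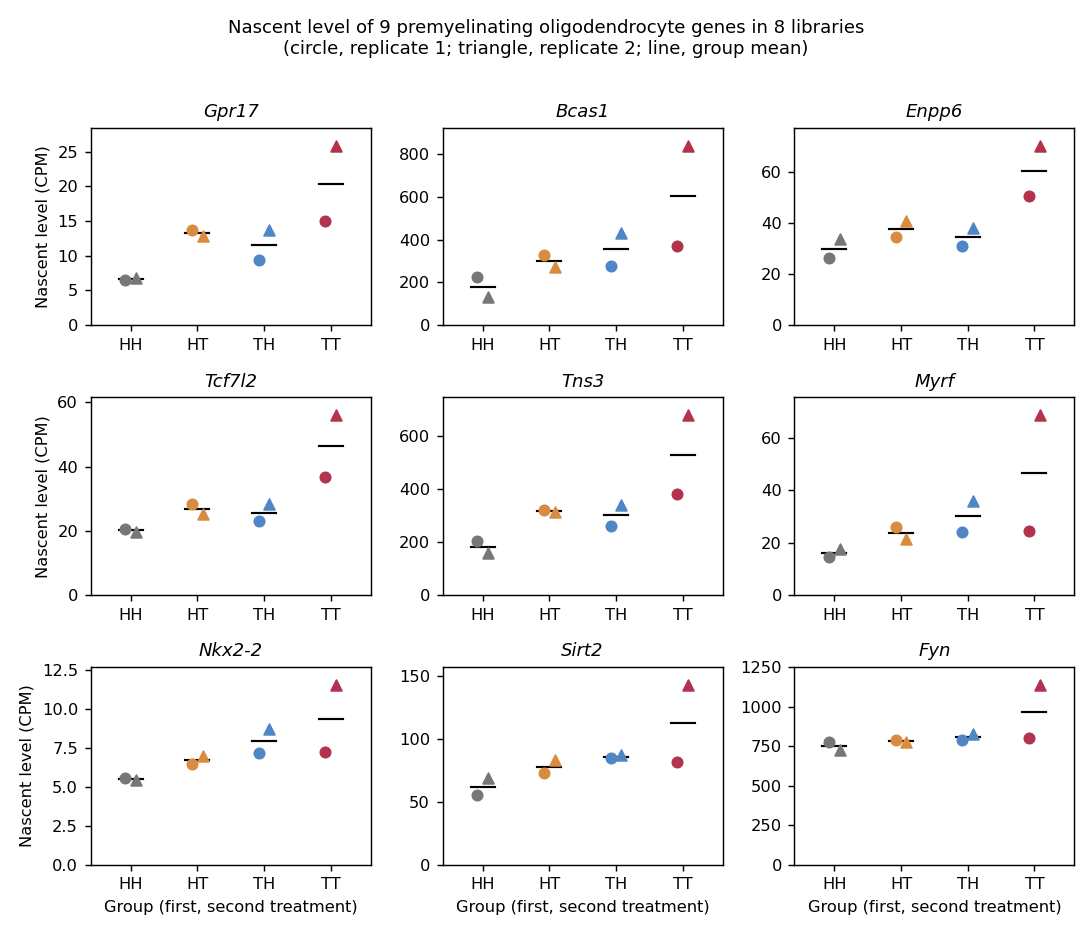
Nascent level of each of the 9 genes (y axis, CPM, from 0) in the 4 groups (x axis), with replicate 1 as circles, replicate 2 as triangles and a line at the group mean (n = 2). HH holds the lowest library and TT replicate 2 the highest library of every gene, for example 6.48 and 25.9 CPM for Gpr17.

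Across the 9 genes, the HH mean was the lowest and the TT mean the highest in 9 of 9, an order found in 13.6% of the genes tested. Without TT replicate 2 the order held in 5 of 9, against 12.8% of genes, and not in Myrf, Nkx2-2, Sirt2 and Fyn, where TT replicate 1 lay below the TH mean. HT and TH lay between. Their libraries overlapped in all members but Nkx2-2 and Sirt2, in which TH lay wholly above HT. The same was not counted over all genes, so this only describes the levels. The members varied together: over the 8 libraries the 36 pairs had Pearson correlations of log2 CPM from 0.77 (Bcas1 and Enpp6) to 0.98 (Gpr17 and Tns3), with a median of 0.90. These correlations describe the same 8 libraries, in which TT replicate 2 is high in every member.

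The first question is how 4 h of TTX acted on cultures that had not been silenced before (HT against HH). All 9 genes lay above 0, with a median log2 fold change of 0.42 against 0.00071 for all genes tested, where 50.2% lay above 0. Gpr17 was highest at 1.00 ± 0.33 (SE, 2 libraries in each group, edgeR adjusted p = 0.707), followed by Tns3 at 0.80 ± 0.26 (adjusted p = 0.707) and Bcas1 at 0.75 ± 0.44 (adjusted p = 0.843). Myrf stood at 0.57 ± 0.52, Tcf7l2 at 0.42 ± 0.23, Sirt2 at 0.32 ± 0.24, Enpp6 at 0.32 ± 0.21, Nkx2-2 at 0.29 ± 0.33 and Fyn at 0.068 ± 0.17. Both HT libraries exceeded both HH libraries in 9 of 9 members, against 18.6% of genes tested, although the margin for Fyn was narrow. At an unadjusted p below 0.05 there were 2 members, Gpr17 and Tns3, against 3.75% of all genes in that direction. That count changed when single libraries were left out, in fits where 1 group rests on 1 library. Leaving out any 1 library left 9 of 9 above 0, and without HH replicate 1 the median was 0.45.

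In cultures silenced before (TT against TH) all 9 lay above 0 again, with a median of 0.77 against 0.0040 for all genes. Tcf7l2 stood at 0.86 ± 0.21, Tns3 at 0.81 ± 0.26, Enpp6 at 0.81 ± 0.19 and Gpr17 at 0.81 ± 0.28 (edgeR adjusted p = 1.00 for each). These 4 were the members with an unadjusted p below 0.05, against 1.71% of genes tested, and also the 4 in which both TT libraries exceeded both TH libraries, against 15.9%. Bcas1 stood at 0.77 ± 0.43 and Myrf at 0.64 ± 0.45, with wide errors. Sirt2 (0.39 ± 0.23), Fyn (0.26 ± 0.17) and Nkx2-2 (0.25 ± 0.28) were lower. Without TT replicate 2, TT replicate 1 stands alone and is assumed to vary like the other groups. Only 5 of 9 then lay above 0, with a median of 0.067. Myrf stood at -0.30, Nkx2-2 at -0.15, Sirt2 at -0.068 and Fyn at -0.020, so the direction of these 4 rested on TT replicate 2. The median was 0.49 without TH replicate 1 and 1.12 without TT replicate 1, with 9 of 9 above 0 in both. The number of members at an unadjusted p below 0.05 fell without TT replicate 2 or TH replicate 1 and rose without TT replicate 1.

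When the effect of the later TTX was averaged over both histories, Gpr17 stood at 0.91 ± 0.22 (edgeR adjusted p = 0.280), Tns3 at 0.81 ± 0.18 (adjusted p = 0.293), Tcf7l2 at 0.64 ± 0.16 (adjusted p = 0.284) and Enpp6 at 0.57 ± 0.14 (adjusted p = 0.293). Only 0.202% of genes had a larger average than Gpr17. With Bcas1 (0.76 ± 0.31, adjusted p = 0.718) they made 5 members at an unadjusted p below 0.05, against 4.35% of genes tested. DESeq2 called 1 member, Tns3 (log2 fold change 0.80, DESeq2 adjusted p = 0.00883), among 7 genes higher, or 0.0802% of those it tested. No member had all 4 libraries of the later TTX above all 4 of vehicle, against 2.69% of genes tested, and none had all 4 below, against 1.64%. TH replicate 2 exceeded the lower HT library in every member, so no member could have all 4 above. How many of all genes did so was not counted. With TH replicate 2 left out, 4 of 9 (Gpr17, Enpp6, Tcf7l2 and Tns3) were higher in all 4 libraries than in the remaining 3, as were 6.14% of genes tested. Without TT replicate 2 all 9 averages stayed above 0, with a median of 0.41 in place of 0.60. Without TT replicate 1 the median was 0.77. The number of members at an unadjusted p below 0.05 fell without TT replicate 2 and rose without TT replicate 1.

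The history of silence was compared with the second treatment held fixed. After washout (TH against HH) all 9 lay above 0, with a median of 0.54 against 0.0011 for all genes. Bcas1 stood at 0.99 ± 0.44, Myrf at 0.92 ± 0.51, Gpr17 at 0.82 ± 0.33 and Tns3 at 0.73 ± 0.26 (edgeR adjusted p = 0.891 for each). Both TH libraries exceeded both HH libraries in 8 of 9, all but Enpp6 (0.20 ± 0.21), against 16.7% of genes tested, and 2 members, Gpr17 and Tns3, had an unadjusted p below 0.05, against 2.06%. Without TH replicate 2 the median was 0.44, with 9 of 9 above 0. It was 0.55 without HH replicate 1 and 0.57 without HH replicate 2. The count at an unadjusted p below 0.05 fell without TH replicate 2 and without HH replicate 2. It was unchanged without HH replicate 1 and rose without TH replicate 1. Under the later TTX (TT against HT) all 9 lay above 0 with a median of 0.69. Bcas1 stood at 1.01 ± 0.44, Myrf at 0.99 ± 0.47, Tcf7l2 at 0.79 ± 0.21 and Enpp6 at 0.69 ± 0.20 (edgeR adjusted p = 1.00 for each). Here 7 of 9 did not overlap, against 18.2%, and 5 had an unadjusted p below 0.05, against 1.28%. Without TT replicate 2 the median of this comparison was 0.17, with 9 of 9 still above 0. It was 0.96 without TT replicate 1, 0.67 without HT replicate 1 and 0.71 without HT replicate 2. The count at an unadjusted p below 0.05 fell without TT replicate 2 and without either HT library. It rose without TT replicate 1. HT against HH and TH against HH share the HH libraries, and TT against TH and TT against HT share the TT libraries.

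**Figure D2:**
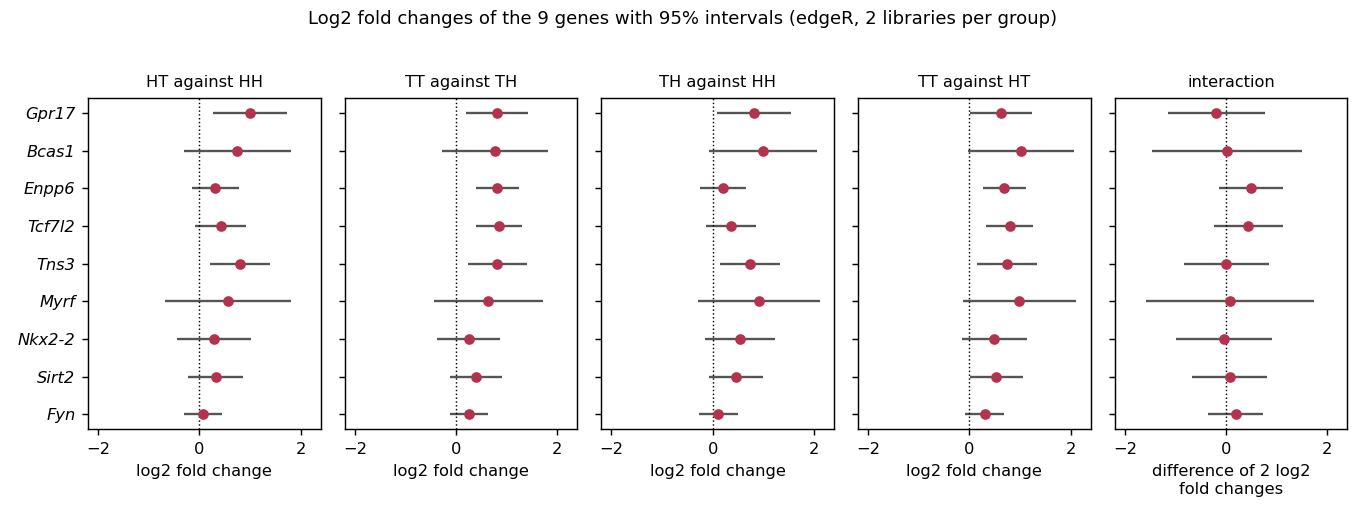
Log2 fold change of each gene (points) with its 95% interval (lines) in 4 comparisons and, in the last panel, the interaction, which is the difference between the TT against TH and HT against HH values. All points of the 4 comparisons lie to the right of 0, and the interaction points lie on both sides of 0 with intervals that include it.

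Whether the response to the later TTX differed with history was tested as an interaction. Of the 9 estimates, 7 lay above 0, with a median of 0.070, and 0 members had an unadjusted p below 0.05, against 0.73% of genes tested in the higher direction (edgeR adjusted p = 1.00 for each). Enpp6 had the largest at 0.49, with a 95% interval from -0.13 to 1.12, and Tcf7l2 stood at 0.44 (-0.25 to 1.12). Gpr17 stood at -0.19 (-1.14 to 0.76), Tns3 at 0.0094 (-0.82 to 0.84) and Myrf at 0.073 (-1.58 to 1.73). Bcas1 stood at 0.023 ± 0.62. Intervals this wide do not show that the responses were alike. Leaving out TT replicate 2 left 2 of 9 above 0, and leaving out TT replicate 1 left 9 of 9.

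Cultures silenced at both times were also set against those never silenced (TT against HH), a comparison added after the levels had been seen. The median of the 9 was 1.21 against 0.0033 for all genes. Bcas1 stood at 1.76 ± 0.45 (3.39-fold), Gpr17 at 1.63 ± 0.31 (3.10-fold), Myrf at 1.56 ± 0.49, Tns3 at 1.55 ± 0.26, Tcf7l2 at 1.21 ± 0.22 and Enpp6 at 1.01 ± 0.20. The smallest adjusted p of edgeR among them was 0.155, for Tcf7l2. Both TT libraries exceeded both HH libraries in 9 of 9, against 21.8% of genes, and 8 had an unadjusted p below 0.05, against 5.57%. DESeq2 called 5 members (Gpr17, Enpp6, Tcf7l2, Tns3 and Myrf) among 23 genes higher, or 0.245% of those it tested, and edgeR without the filter on low counts called 3 (Gpr17, Enpp6 and Tcf7l2) among 23, or 0.154%. With the replicate number as a block, edgeR called Enpp6 alone of the members, among 0.0528% of genes. Without TT replicate 1, edgeR called 5 members (Gpr17, Tcf7l2, Tns3, Myrf and Sirt2) among 16 genes higher (0.141%), and without HH replicate 2 it called 2 (Enpp6 and Tcf7l2) among 43 (0.378%). Without TT replicate 2 the median was 0.75, and the smallest edgeR adjusted p of a member was 0.974.

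The promoters of Enpp6, Tcf7l2 and Tns3, which with Gpr17 had the smallest p in the average of the later TTX, are shown. These 4 genes varied together over the libraries, as did all 9 members. The Gpr17 promoter is not shown and held none of the motifs searched, nor did those of Nkx2-2 and Sirt2. The promoters come from RefSeq (build GRCr8, not the build rn6 on which the reads were counted). They span 250 bases before to 30 bases after the annotated start. Those shown are written on the gene's strand, with capitals for matches to the motifs searched.
Enpp6 (chr16:52026699-52026978, minus strand): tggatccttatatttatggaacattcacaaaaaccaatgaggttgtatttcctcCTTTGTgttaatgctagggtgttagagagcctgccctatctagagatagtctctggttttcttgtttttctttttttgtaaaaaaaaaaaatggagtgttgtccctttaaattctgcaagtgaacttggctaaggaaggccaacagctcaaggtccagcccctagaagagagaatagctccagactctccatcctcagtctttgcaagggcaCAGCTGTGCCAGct
Tcf7l2 (chr1:264791085-264791364, plus strand): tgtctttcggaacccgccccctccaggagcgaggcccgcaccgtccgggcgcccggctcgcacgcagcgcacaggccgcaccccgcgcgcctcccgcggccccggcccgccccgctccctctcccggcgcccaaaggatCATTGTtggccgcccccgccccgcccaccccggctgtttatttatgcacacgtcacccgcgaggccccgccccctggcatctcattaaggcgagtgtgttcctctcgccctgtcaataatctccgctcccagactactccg
Tns3 (chr14:87619357-87619636, minus strand): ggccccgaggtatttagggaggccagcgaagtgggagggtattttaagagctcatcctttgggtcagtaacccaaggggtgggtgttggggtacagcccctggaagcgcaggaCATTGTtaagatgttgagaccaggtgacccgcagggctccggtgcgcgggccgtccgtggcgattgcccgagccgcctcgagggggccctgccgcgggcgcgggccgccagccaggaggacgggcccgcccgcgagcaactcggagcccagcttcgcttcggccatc
Each motif was searched on both strands in the promoters of 7 of the 9 genes, which the table holds, and in all 33469 promoters of the table at the same length. Sox-type motifs (ACAAAG or ACAATG) were found in 4 of the 7, Enpp6, Tcf7l2, Tns3 and Fyn, and in 27.8% of all promoters. E-boxes (CAGCTG or CAGATG) were found in 2 of 7, Enpp6 and Fyn, and in 27.35% of all promoters. The motif CTGGCAC, reported for Myrf, was found in Enpp6 and in 4.36% of all promoters. In Enpp6 it begins 21 bases after the start, on the opposite strand, and overlaps the E-box CAGCTG that begins 16 bases after the start. CTGGTAC and the TCF/LEF-type motifs CTTTGAT and CTTTGAA were not in these 7 windows. A match is a run of letters and was not tested as a binding site.

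The replicates differed in both directions in HH and HT and in one direction in TH and TT. The median of the 9 differences, replicate 2 minus replicate 1 in log2 CPM, was -0.018 in HH and -0.027 in HT. In size, regardless of direction, the median HH gap was 0.26, against 0.24 for all genes, and Bcas1 had the widest at -0.75. In HT it was 0.17, against 0.18 for all genes. In TH it was 0.30 and in TT 0.77, and replicate 2 was the higher in 9 of 9 in both groups. For comparison, replicate 2 was the higher in 49.3% of all genes in TH and in 51.3% in TT, and in both groups at the same time in 27.1%. Myrf had the widest TT gap at 1.46 (2.75-fold), a size that 0.176% of genes reached in TT, followed by Bcas1 at 1.17 (2.25-fold, reached by 0.747%). Enpp6 had the narrowest at 0.47, and 11.7% of all genes differed by as much. The whole libraries did not stand apart in this way: the TT replicates correlated at 0.987 over all genes, the closest of the 4 pairs, and their median absolute gap was 0.158. TT replicate 2 was also the second deepest library, with 4907817 counts, after TH replicate 2 with 4959887, and the part of depth in these gaps was not tested.

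**Figure D3:**
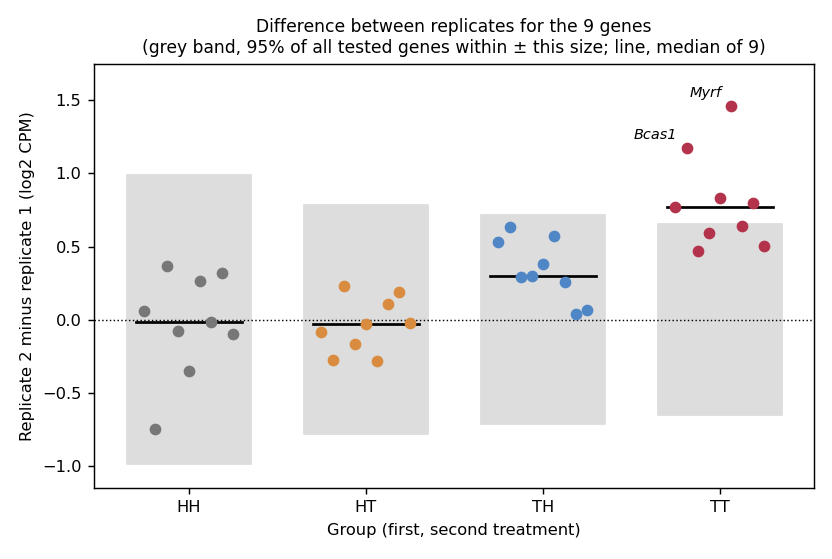
Difference between replicates (replicate 2 minus replicate 1, log2 CPM) for the 9 genes in each group, with a line at their median and a grey band that holds 95% of all tested genes of that group. In TT all 9 points are above 0 and 5 lie above the band, Myrf (1.46) and Bcas1 (1.17) farthest.

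Neighbouring stages of the lineage were followed with marker lists. In the median position of a list in a library (log2 CPM minus the gene's mean over the 8 libraries), TT replicate 2 stood at 0.98 for the 9 genes and at 1.02 for the 5 tested genes of myelinating oligodendrocytes, but at 0.074 for the 6 tested progenitor genes. TT replicate 1 stood at 0.23, 0.27 and 0.13. The HH libraries were the lowest of the 8 for the 9 genes (-0.56 and -0.51) and for the myelin genes (-0.63 and -0.37). In progenitor genes, HH stood at -0.17 and -0.25 and TH replicate 1 was close at -0.16. In the average of the later TTX, Cnp, an enzyme of myelin membranes, stood at 0.60 ± 0.21 (edgeR adjusted p = 0.576) and Cldn11, a tight junction protein of myelin, at 1.31 ± 0.39 (adjusted p = 0.413). Of the 5 myelin genes tested, 4 lay above 0, Mbp being the exception at -0.12 ± 0.20. Only 1 TT library of Cnp lay above the HT range: it stood at 17.3 and 20.9 CPM in HH, 29.5 and 26.1 in HT, 26.0 and 26.5 in TH, and 26.9 and 55.2 in TT. With TT replicate 2 left out the average was 0.29 ± 0.15 for Cnp, 1.03 ± 0.42 for Cldn11 and -0.35 ± 0.16 for Mbp, and the list median was 0.29 in place of 0.60.

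Among progenitor genes 6 of 6 lay above 0 in the average of the later TTX, with a median of 0.34, or 0.29 without TT replicate 2. Cspg4 stood at 0.39 ± 0.086 (edgeR adjusted p = 0.258), Pdgfra at 0.32 ± 0.10 (adjusted p = 0.484) and Vcan, a matrix proteoglycan, at 0.36 ± 0.18 (adjusted p = 0.767). By history, averaged over the second treatment (also added after the levels were seen), the progenitor median was 0.039 whereas that of the 9 genes was 0.58 and that of the myelin genes 0.51. In that average 8 of the 9 genes had an unadjusted p below 0.05, against 3.01% of all genes, all but Fyn, and none passed adjustment in edgeR (adjusted p = 0.814 for each) or DESeq2. The median of the 9 genes was 0.41 without TT replicate 2. The myelin median was then 0.20 and the progenitor median 0.054. Without TH replicate 2 the median of the 9 genes was 0.49. It was 0.32 without both TT replicate 2 and TH replicate 2, a fit added after the data were seen. The number of the 9 genes at an unadjusted p below 0.05 fell in each of these fits. Whether the lists differed from each other was not tested.

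Other genes of newly formed oligodendrocytes, from a list of 15 of which 11 were tested, had a median of 0.18 for the later TTX with 9 of 11 above 0. Cnksr3, a scaffold of Ras signalling, stood at 0.60 ± 0.12 (edgeR adjusted p = 0.211), the transcription factor gene Sox8 at 0.53 ± 0.12 (adjusted p = 0.258) and Itpr2, a calcium release channel that marks early oligodendrocytes, at 0.42 ± 0.096 (adjusted p = 0.270). Of the 11 tested, only these 3 had all 4 libraries of the later TTX above the 4 of vehicle, against 2.69% of all genes. They were named for the smallest p in this same average, so their separation is no further support. The list median was 0.22 without TT replicate 2. Positive regulators of the lineage had a median of 0.26 with 6 of 7 above 0, or 0.23 without TT replicate 2. Olig2 (0.32 ± 0.088, adjusted p = 0.345), Sox10 (0.54 ± 0.18, adjusted p = 0.525) and Olig1 (0.27 ± 0.12, adjusted p = 0.718) had the smallest p among them. A list set up as inhibitors of differentiation had a median of 0.072 with 6 of 8 above 0. It was led by Sox6, a Sox factor that holds progenitors back (0.42 ± 0.14, adjusted p = 0.497). Next came Klf9, a hormone-responsive factor (-0.31 ± 0.14), and Id4, which blocks basic helix-loop-helix factors (0.16 ± 0.17, or 0.086 without TT replicate 2). The list median without TT replicate 2 was 0.080. Klf9, 1 of the 2 genes below 0, is not an established inhibitor, and the count and medians include it.

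Around Tcf7l2, 8 Wnt pathway genes had a median of 0.13, 6 above 0, or 0.14 without TT replicate 2. Lgr5, an R-spondin receptor, stood at -0.60 ± 0.13 (edgeR adjusted p = 0.258), the Tcf7l2 relative Tcf7l1 at 0.36 ± 0.098 (adjusted p = 0.345) and Lef1 at 0.67 ± 0.32 (adjusted p = 0.747). Axin2, a target of the pathway, stood at 0.14 ± 0.12. Partners of Fyn had a median of 0.0022 with 5 of 10 above 0, and the GTPase regulator Arhgap35 (0.21 ± 0.10, or 0.12 without TT replicate 2), the laminin receptor subunit Itga6 (0.14 ± 0.093) and the RNA-binding protein gene Hnrnpa2b1 (-0.11 ± 0.087) had the smallest p.

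Markers of other cells were read in the same libraries, and none passed adjustment in edgeR. Of 6 genes of dividing cells, 6 lay above 0 for the later TTX (median 0.68), and Cenpf (0.72 ± 0.14), Cdk1 (0.75 ± 0.16) and Rrm2 (0.86 ± 0.18) had the smallest p. In 5 of the 6 all 4 libraries of the later TTX lay above the 4 of vehicle, against 2.69% of all genes. Unlike the 9 genes they stood no higher in TT replicate 2 (0.302) than in TT replicate 1 (0.304). Astrocyte markers had a median of 0.18 with 7 of 8 above 0, led by Gfap (0.40 ± 0.12), Aqp4 (0.29 ± 0.095) and S100b (0.28 ± 0.11), and their summed level ran from 1331 to 1732 CPM in HH, 1581 to 2007 in HT, 1409 to 1587 in TH and 1735 to 1785 in TT. Excitatory neuron markers had a median of -0.025, with Slc17a6 at -0.49 ± 0.18, Tbr1 at 0.26 ± 0.14 and Slc17a7 at -0.035 ± 0.15, and their summed level was lowest in TT replicate 2, at 705 CPM against 836 to 1044 in the other libraries. Inhibitory neuron markers had a median of -0.39, with Gad1 at -0.58 ± 0.14, Gad2 at -0.44 ± 0.12 and Sst at -0.58 ± 0.33. Only 2 of 6 microglial and 3 of 4 endothelial markers passed the filter, with summed levels of at most 13.3 and 97.3 CPM. When TT replicate 2 was left out the medians were 0.68 for dividing cells, 0.20 for astrocytes, 0.036 for excitatory and -0.44 for inhibitory neurons, and Slc17a7 stood at 0.046. The part of these cell types in the values of the 9 genes was not tested.

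**Figure D4:**
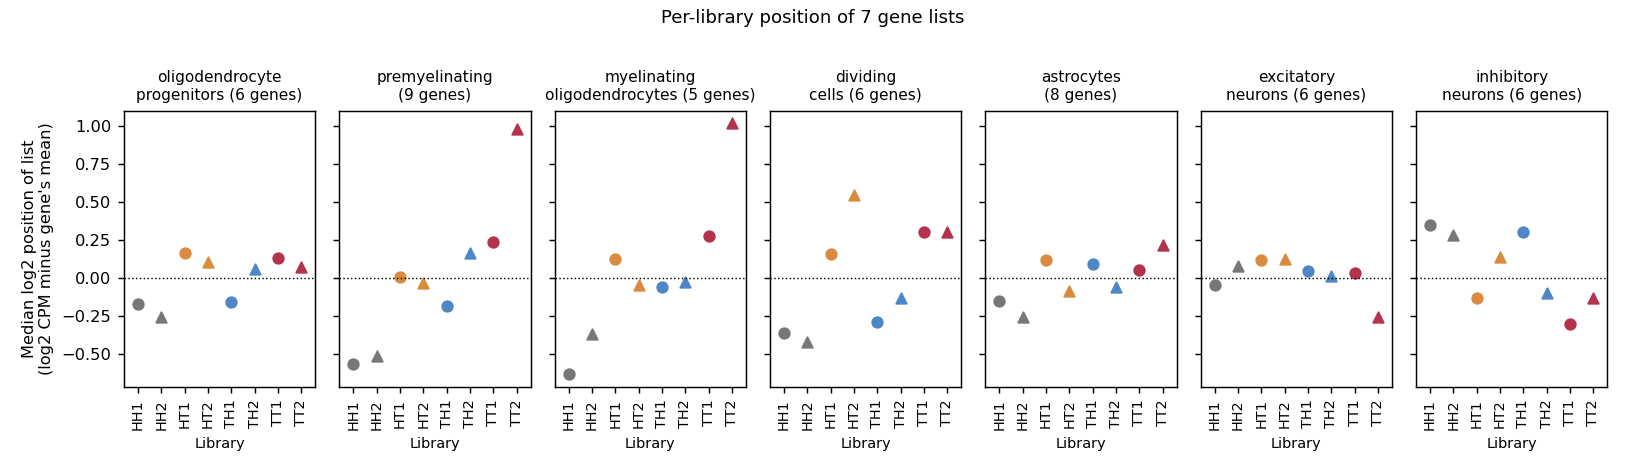
Median position of 7 gene lists in each library (y axis, log2 CPM minus the gene's mean over 8 libraries; circles, replicate 1; triangles, replicate 2). TT replicate 2 stands near 1 in the premyelinating (0.98) and myelinating (1.02) lists and at 0.074 in progenitors.

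The genes whose pattern over the 8 libraries was most like that of 4 members were ranked by Pearson's r of log2 CPM among the genes tested, as a description. For Gpr17 they were the cyclin gene Ccnd1 (0.997), Nedd1 (0.990), Abtb2 (0.988) and Phldb1 (0.985). For Bcas1 they were Ugt8 (0.985), the enzyme of myelin galactolipid synthesis, Grik3 (0.976), Tspan11 (0.973), the secreted ligand gene Bmp4 (0.967) and Ccdc101 (0.966). For Enpp6 they were Aldh6a1 (0.980), Otud7b (0.968), the semaphorin receptor gene Plxnb3 (0.967), Zfp445 (0.965) and Map7 (0.949). For Myrf they were Dusp15 (0.971), Olfml1 (0.971), Hp1bp3 (0.970), Snx30 (0.968) and Lhfpl2 (0.964). All of these had their highest level in TT replicate 2. Ccnd1 ran from 39.9 CPM in HH replicate 2 to 64.3 in TT replicate 2, and Ugt8 from 7.30 to 44.4 in the same libraries.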

How the data were processed

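The authors deposited raw whole-number read counts, 1 row for each gene symbol. The submitters' processing notes name FastQC, TopHat2, Bowtie2 and featureCounts and build rn6. What the sources used here do not give is any version, the annotation, the strand setting, whether introns were counted and how the genes of the table were chosen, so a member's counts may hold reads of an antisense or overlapping gene. Sample descriptions begin with a number, which tied 8 columns to the samples, and 2 columns that match no sample were not used. Groups and replicate numbers come from the titles, and nothing says that replicates came from separate cultures, so the p-values may rest on technical spread alone. In no group did the replicates agree within sampling noise (chi-square test).

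Counts were fitted in R 4.3.3 with edgeR 4.0.16 (TMM scaling, default expression filter, 1 model of 4 group means with 4 residual degrees of freedom, robust quasi-likelihood test, Benjamini-Hochberg adjustment at 0.05). The SE is the log2 fold change over the square root of F and rests on all 4 groups. DESeq2 1.42.0, RLE factors, no filter, a replicate block and left-out libraries were alternatives. Log2 CPM used a prior count of 2. Figures were drawn with matplotlib 3.10.9. In simulated counts for 11372 genes the edgeR step for HT against HH found 63.7% of the 2-fold and 93.3% of the 4-fold changes put in, with 9.04% of calls false. For TT against TH it found 72% and 91.7%, with 11.2% false. For the average of the later TTX it found 83.7% and 97.3%, with 7.16% false. No simulated library was set apart from its replicate, as TT replicate 2 was for the members, so these shares may not hold for the real counts.

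The members and lists were chosen with earlier results of these data known. Named genes are the 9 members, up to 3 genes of each list by smallest p in the average of the later TTX, and 5 genes most like each of 4 members (1 gene that these rules name is not reported here), and a gene named beyond these was chosen after its values were seen.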

Additional observations from a re-analysis of the deposited data

How the results depend on the processing

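All 9 genes stayed above 0 in HT against HH, TH against HH, TT against HT, TT against HH and both averages under every alternative run. In TT against TH the count above 0 ran from 5 (without TT replicate 2) to 9 when 1 library was left out, and in the interaction from 2 (without TT replicate 2) to 9, with 4 without TH replicate 1. Over these fits the TT against TH values ran from -0.30 to 1.18 for Myrf, -0.15 to 0.53 for Nkx2-2, -0.068 to 0.73 for Sirt2 and -0.020 to 0.49 for Fyn. Interaction values ran from -0.65 to 0.14 for Gpr17, -0.68 to 0.49 for Bcas1, -0.47 to 0.37 for Tns3, -0.86 to 0.62 for Myrf, -0.43 to 0.24 for Nkx2-2, -0.39 to 0.41 for Sirt2 and -0.087 to 0.42 for Fyn. Without both HH replicate 1 and HT replicate 1 the interaction was -0.26 for Bcas1 and -0.17 for Tns3. Without both TT replicate 2 and TH replicate 2, added after the data were seen, 2 of 9 lay above 0 in the interaction (Bcas1 -0.33, Tns3 -0.26, Myrf -0.53, Sirt2 -0.37, Fyn -0.054), Sirt2 stood at -0.049 in TT against TH, and 1 gene each was called in TH against HH, TT against TH, both averages and the interaction. The members separated by the later TTX, 0 of 9, ran from 0 to 4 with 1 library left out, 4 without TH replicate 2 (6.14% of all genes in that fit), 1 without HT replicate 1 (4.85%) and 1 without HT replicate 2 (4.18%).

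Genes called by edgeR, 0 in each comparison, ran over the left-out libraries from 0 to 32 in HT against HH, 0 to 1 in TT against TH, 0 to 121 in TH against HH, 0 to 7 in the average of the later TTX, 0 to 2 in the interaction, 0 to 100 in the average of history and 0 to 248 in TT against HH. In TT against HT the count was 0 in each. Of the others, all but TT against TH were highest without HH replicate 2, a fit in which HH rests on replicate 1 and is assumed to vary like the other groups. DESeq2 called 13 genes and edgeR without a filter 16 in the average of the later TTX, and 35 and 28 in TT against HH. In TT against HH the members Enpp6 and Tcf7l2 also passed without HH replicate 2, and Gpr17, Tcf7l2, Tns3, Myrf and Sirt2 without TT replicate 1. With the replicate number as a block, 11 genes were called in TT against HH, Enpp6 among the members, and 0 in the others, and Myrf stood at -0.031 in the interaction. The labels do not say that a number marks a shared culture: deviations from group means correlated at 0.45 between HH and HT and from -0.066 to 0.087 between the other groups. Depth limits Nkx2-2 and Gpr17 most, with as few as 18 and 21 reads. The causes of these differences were not tested.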
